A study of Mus musculus with 9 samples.

Results

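The cytosolic ribosomal protein genes were taken as every listed symbol made of Rpl or Rps followed by a digit, without the Rps6k kinases and Rps19bp1, together with Rplp0, Rplp1, Rplp2 and Rpsa. This rule found 87 of the 22609 genes in the count files: 46 genes of the large subunit, 31 of the small subunit, 8 paralogs of such genes and 2 pseudogenes. RNA sequencing gave 9 libraries of tumors grown from 4T1, a mouse mammary carcinoma line used as a model of triple-negative breast cancer. The hosts were BALB/c mice that had eaten a diet with 10 kcal% fat (LFD) or 60 kcal% fat (HFD) for 6 weeks before 500000 cells were placed in the mammary fat pad, and that stayed on it afterwards. The LFD and HFD groups did not receive EC359. The study mentions vehicle for its 4T1 tumors without its composition, and names 0.3% hydroxy propyl cellulose for its xenografts of another line. It does not say whether the LFD group of the 4T1 tumors received vehicle. The third group (HFD + EC359) ate the HFD and received EC359, an inhibitor of the leukemia inhibitory factor receptor (LIFR), at 5 mg/kg by the intraperitoneal route on 5 days of each week. Each group had 3 libraries. The sources used here do not say which libraries came from separate mice, so p-values measure the spread between these libraries, which may be technical. All tumors came from 1 injected line, and each library is bulk tumor RNA in which carcinoma and host cells are mixed.

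The ribosome is built from ribosomal RNA and a fixed set of proteins, in which nearly every protein is present in 1 copy, so that cells make the proteins in matched amounts. The mRNAs of these proteins begin with a run of pyrimidines just at the cap, and the mTOR pathway acts on their translation through this run and the binding protein Larp1, so their output is known to be controlled strongly at translation. The large subunit joins amino acids and holds the tunnel through which the new chain leaves, and the small subunit reads the mRNA. Growing tumors are known for high ribosome production.

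The start regions of a selection of genes called with HFD are shown first, because the pyrimidine start is the family's shared sequence feature. The selection is not limited to the largest changes and does not hold all of them. Windows of 30 bases were read 5′ to 3′ from the mm9 genome, 10 bases before to 20 bases from the annotated start of each gene, on the transcribed strand. Capitals mark a pyrimidine run, that is, a C followed by at least 4 bases that are each C or T, beginning at the C nearest to the start. The first group holds genes that were higher with HFD:
Rps24 (chr14:25309893-25309922, plus strand): ggggtcCTTCCTTgcgcgttgatatgattg
Rpl31 (chr1:39424686-39424715, plus strand): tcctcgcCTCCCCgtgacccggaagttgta
Rpl23a (chr11:77997067-77997096, minus strand): tccattctataagctcatgggaattgggct
Rps26 (chr10:128063543-128063572, minus strand): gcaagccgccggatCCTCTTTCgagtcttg
Rps27 (chr3:90017551-90017580, minus strand): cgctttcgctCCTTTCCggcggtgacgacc
The second group holds genes that were lower with HFD:
Rps3 (chr7:106632200-106632229, minus strand): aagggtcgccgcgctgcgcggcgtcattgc
Rpl18 (chr7:52973431-52973460, plus strand): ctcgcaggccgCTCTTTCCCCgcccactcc
Rpl37a (chr1:72757824-72757853, plus strand): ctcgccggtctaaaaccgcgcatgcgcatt
Rps9 (chr7:3655633-3655662, plus strand): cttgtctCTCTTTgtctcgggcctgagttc
Rps6 (chr4:86503252-86503281, minus strand): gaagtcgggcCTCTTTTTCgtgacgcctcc
Rpl41 (chr10:127986205-127986234, minus strand): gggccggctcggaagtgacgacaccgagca
Both groups hold windows with a run and windows without, namely Rpl23a in the first and Rps3, Rpl37a and Rpl41 in the second. Such a run began within 20 bases of the annotated start in 60 of 77 genes of the large and small subunits (77.9%), against 48.9% of the 22422 listed genes with a readable window and 61.8% of 76 mitochondrial ribosomal protein genes. Within 2 bases of the start the shares were 32.5%, 8.34% and 13.2%, and exactly at the start they were 18.2%, 2.19% and 1.32% in the same order. These last distances were chosen after the wider shares were seen. A match is a description of the annotated sequence, since the annotated start can differ from the base at which transcription begins.

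The libraries held 5085357 to 9751201 assigned counts, fewest in the LFD group. Values are given as CPM, that is, counts relative to the library total corrected by its TMM factor, and 3 counts correspond to 0.300 to 0.613 CPM depending on the library, which covers counting error only. LFD replicate 1 stood apart: its mean chi-square per gene against the other LFD libraries was 3.02 and 2.48, while other pairs within groups gave 1.36 to 1.57. Counting error alone gives 1 on this scale. Genes of low GC content against genes of high GC content differed by -0.54, -0.32 and -0.36 on the log2 scale in the LFD libraries, by 0.10 to 0.16 in HFD and by 0.25 to 0.30 in HFD + EC359. Short against long genes differed by 0.10 to 0.11 in LFD, -0.08 to -0.06 in HFD and -0.04 to -0.03 in HFD + EC359. GC composition and, less strongly, length thus moved with the groups. The subunit genes are short, with a median length of 703 bases beside 2843 over all tested genes, whose lower quartile was 1788. Summed marker genes of cell types moved with the groups too. The 10 carcinoma and epithelium markers, none of them at 0 in every library, summed to 2062 to 2226 CPM in LFD, 775 to 787 in HFD and 1144 to 1173 in HFD + EC359. The 8 fibroblast markers summed to 7747 to 9213 CPM in LFD, 13489 to 14237 in HFD and 3976 to 4081 in HFD + EC359, and the 8 macrophage markers to 1731 to 1759, 1593 to 1619 and 1979 to 2007. The 8 T cell markers summed to 16.3 to 22.4 CPM in LFD, 15.4 to 16.0 in HFD and 20.2 to 23.3 in HFD + EC359. The B and plasma cell list (6 genes) summed to 1.10 to 6.80 CPM over all libraries, with 5.76 to 6.80 in HFD, and the adipocyte list (8 genes) to 11.2 to 14.6 CPM in LFD, 28.5 to 31.6 in HFD and 28.5 to 32.6 in HFD + EC359. Neutrophil markers (8 genes) summed to 106 to 129, 143 to 156 and 173 to 181 CPM, endothelium markers (7 genes) to 198 to 205, 363 to 389 and 302 to 314, and erythroid markers (7 genes) to 162 to 171, 265 to 290.3 and 189 to 199 in the same groups. Epidermis markers (8 genes) stood at 194 to 205, 116 to 124 and 173 to 181 CPM and skeletal muscle markers (7 genes) at 113 to 126, 124 to 133 and 102 to 107. A sum follows the most abundant markers of its list, and the other markers did not always move with it. In HFD + EC359 against LFD the median log2 fold change was 0.10 over the 8 fibroblast markers and 0.32 over the 7 muscle markers, although both sums fell. In HFD against LFD it was 0.08 over the 8 macrophage markers, whose sum fell too. The part of these marker shifts in the ribosomal protein results was not tested, and in bulk tumors fewer cells of a type and less RNA per cell cannot be told apart.

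The ribosomal protein genes as a whole took a slightly larger share of the counts in every HFD and HFD + EC359 library than in any LFD library. All 87 genes together held 2.48%, 2.65% and 2.64% of counts in the LFD libraries, 2.69%, 2.69% and 2.68% in HFD and 2.72%, 2.72% and 2.69% in HFD + EC359. The lowest value belonged to LFD replicate 1, and the other 8 libraries lay between 2.64% and 2.72%. The large subunit took 1.38% to 1.49% in LFD, 1.53% to 1.54% in HFD and 1.55% to 1.57% in HFD + EC359, in 3 ranges that did not overlap. The small subunit took 1.07% to 1.12%, 1.11% to 1.12% and 1.10% to 1.12% in the same groups. Under this small change of the total the single genes moved in opposite directions, as the following comparisons show.

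**Figure D1:**
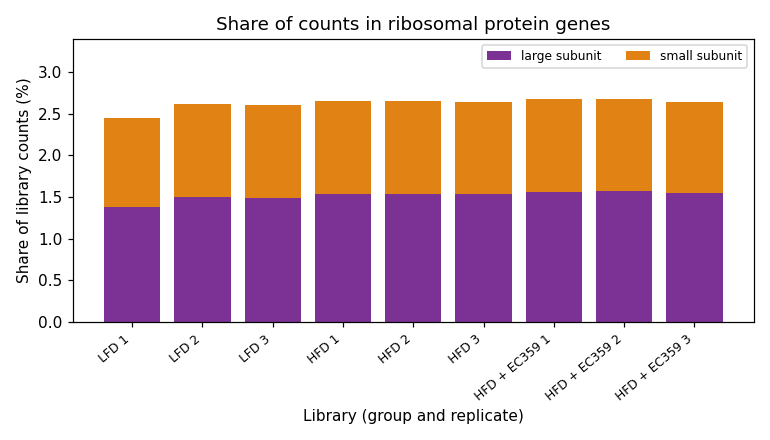
Percent of each library's counts that fell on large subunit genes (purple) and small subunit genes (orange), 1 bar per library, by group and replicate. LFD replicate 1 has the shortest bar, and the paralogs and pseudogenes are not included.

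Levels between genes were compared as CPM per kilobase of annotated exon length, averaged over the 9 libraries. Rpl41, which encodes the shortest ribosomal protein, was highest at 1692 CPM per kb, and the stalk protein gene Rplp1 at 1093, Rps9 at 1023 and Rpl13 at 927 were among the 5 highest. The lowest of the 77 large and small subunit genes were Rpl21 at 5.36 CPM per kb, Rpl29 at 21.1 and Rpl26 at 21.6, so highest and lowest differed 315-fold although their proteins are needed in like amounts. The read pairs with low mapping quality had been dropped before counting, and ribosomal protein genes have many processed copies in the genome. A search of mm9 with their exons found 57 near-identical copies of Rpl21 elsewhere (at least 95% identity over at least 150 bases), 23 of Rpl29 and 7 of Rpl26. Of the 77 genes, 20 had 10 or more copies and a median level of 261 CPM per kb, while the 57 with fewer copies had a median of 441. Rpl26 also shares exons on the same strand with Gm15772, and its counts were split between both symbols, as were those of Rps23, Rpl30, Rps27 and Rpl34 with an overlapping symbol each. Rpl13a overlaps a microRNA gene. The order of levels between genes is therefore uncertain for these genes. Each gene's own copies and overlaps in the genome are the same for all libraries. Whether the expression of these copies and overlapping symbols differed between groups was not tested.

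The first comparison, HFD against LFD, asks what the high-fat diet changed in the tumors. The ribosomal protein genes divided into a larger set that was higher in HFD tumors and a smaller set that was lower. Of the 84 genes with enough counts to be tested, 45 were higher at an adjusted p under 0.05 (quasi-likelihood test of edgeR, adjusted by Benjamini-Hochberg over all tested genes), 17 were lower and 22 did not pass, against 26.0% higher and 25.8% lower among all 13366 tested genes. The 45 higher genes are 53.6% of those tested and the 17 lower genes 20.2%. Their median log2 fold change was 0.14, beside 0.01 over all tested genes. In the large subunit 27 of 46 genes were higher and 10 lower, and in the small subunit 16 of 31 were higher and 7 lower. With the fold change over 2 and adjusted p under 0.01 used in the study's methods, 1 of the 84 passed, where 5.71% of all tested genes did.

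**Figure D2:**
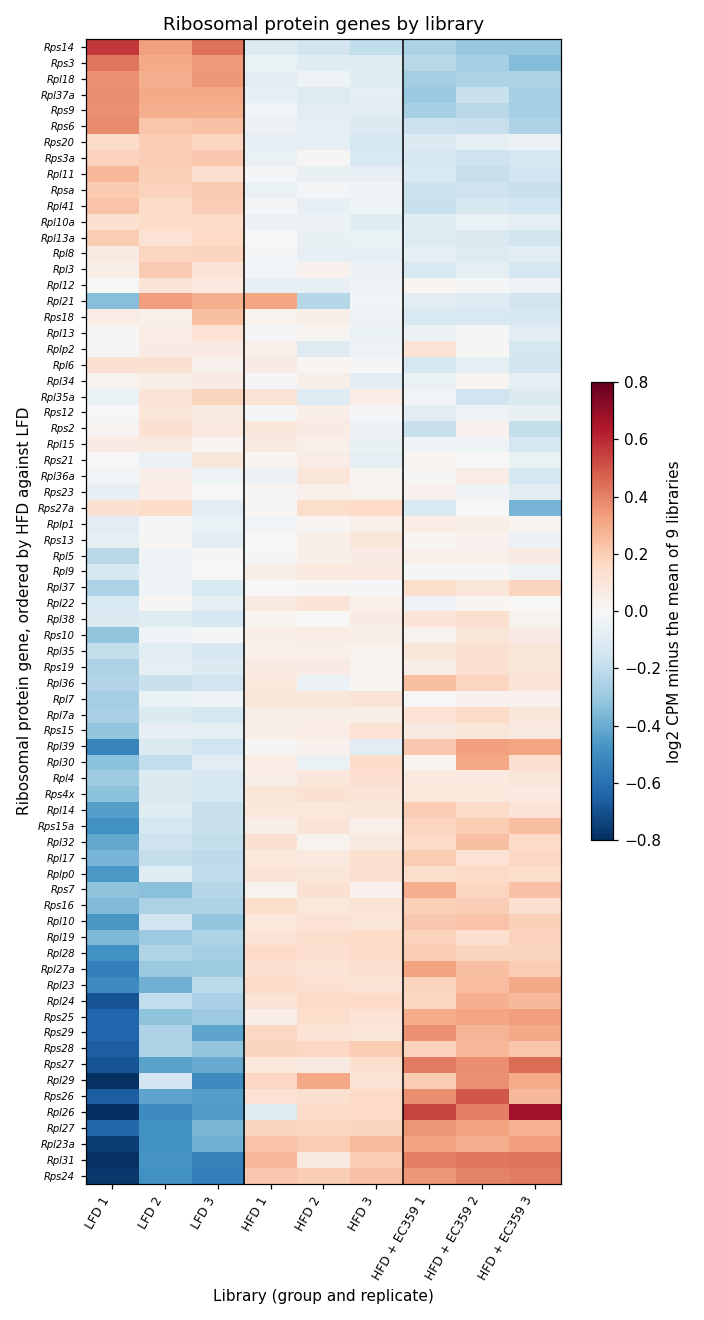
log2 CPM of 72 large and small subunit genes (rows, ordered by HFD against LFD) in the 9 libraries (columns), as the difference from each gene's mean over the libraries, with colors capped at 0.8 in either direction. The genes at the bottom are low in all LFD libraries, mostly lowest in LFD replicate 1, and those at the top are high there.

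Rps24, a small subunit gene that is mutated in Diamond-Blackfan anemia, an inherited failure of red cell production, was among the 5 subunit genes with the largest rise. It was at 145, 178 and 169.7 CPM in LFD, 289, 285 and 292 in HFD and 317, 326 and 329 in HFD + EC359. All HFD libraries were above all LFD libraries, with a log2 fold change of 0.81 (SE 0.049, adjusted p = 4.15e-15). In the sentences that follow, a value in brackets before an SE or an adjusted p is a log2 fold change. Rpl31, at the rim of the peptide exit tunnel, was at 69.1, 86.1 and 82.0 CPM in LFD and 143, 125 and 137 in HFD (0.77, SE 0.062, adjusted p = 4.21e-12). The lowest value was LFD replicate 1 and the groups did not overlap. Rpl23a, another rim protein that serves as a docking site for factors that meet the new chain, was at 81.9, 99.4 and 107 CPM in LFD and 163, 160.0 and 165 in HFD (0.76, SE 0.058, adjusted p = 1.49e-12). Its 20 near-identical copies elsewhere in the genome leave its absolute level uncertain.

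Rps14, a protein of the small subunit platform, fell most. Its values were 626, 531 and 570.2 CPM in LFD, 389.8, 381 and 369 in HFD and 354, 343 and 342 in HFD + EC359, so the LFD libraries were all above the rest. The log2 fold change with HFD was -0.60 (SE 0.043, adjusted p = 2.51e-13), which is 1.51-fold lower.

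Rps3, at the entrance of the mRNA channel and also known in DNA repair, had 1065, 977 and 1003 CPM in LFD and 764, 739 and 741 in HFD (-0.44, SE 0.036, adjusted p = 4.83e-12). No near-identical copy of Rps3 was found elsewhere in the genome. Rpl18, a large subunit gene, had 718, 677 and 708 CPM in LFD and 522, 541 and 520.2 in HFD (-0.41, SE 0.034, adjusted p = 7.59e-12). Rpl37a, a zinc-binding protein of the large subunit, had 605, 577 and 579 CPM in LFD and 448, 435 and 446 in HFD (-0.40, SE 0.036, adjusted p = 4.63e-11). In all of these the LFD libraries lay above every HFD library. Rps9, near the mRNA entrance, had 915, 869 and 863 CPM in LFD and 699, 671 and 671 in HFD (-0.37, SE 0.033, adjusted p = 3.7e-11).

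**Figure D3:**
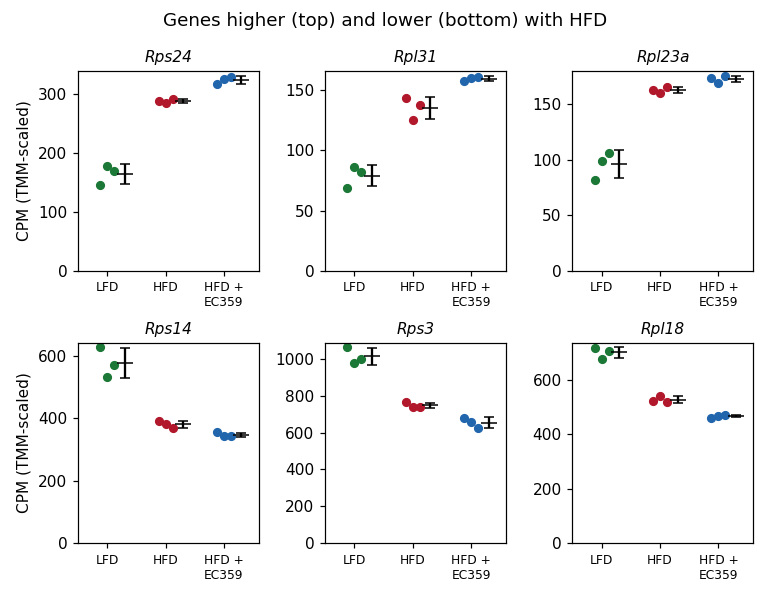
CPM of Rps24, Rpl31 and Rpl23a, which were higher with HFD (top), and of Rps14, Rps3 and Rpl18, which were lower (bottom), 1 point per library and the mean with SD of 3 libraries in black beside the points, on axes that start at 0. In each panel the LFD points stand apart from the HFD points, and the HFD + EC359 points lie on the far side of HFD from LFD. With EC359 against HFD, Rpl23a was not called (adjusted p = 0.227). The calls of Rps24 and Rpl31 in that comparison ended when each library's trend with GC content and length was removed. That of Rps14 ended in 4 of the fits that left out 1 library each.

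Some calls with HFD changed without LFD replicate 1 or with GC content taken into account. Without LFD replicate 1, 37 genes were higher and 19 lower, and all 17 lower genes but only 37 of the 45 higher ones were called again. Those that were not include Rpl37, Rpl30, Rps10, Rpl7l1, Rpl5, Rps27l and Rpl39. With each library's smooth trend across genes with GC content and length removed, 40 were higher and 16 lower, where 20.2% and 22.7% of all tested genes were. Of the 45 higher genes 37 were again higher in that fit and Rpl5 was lower, and 12 of the 17 lower genes were again lower. In every alternative fit 33 of the 45 and 12 of the 17 kept their call. Rps24 stayed at 0.64 and Rps14 at -0.48 on the log2 scale with the trend removed.

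Rpl13a (chr7:52380933-52384115 in mm9, minus strand), which is often used as a reference gene in RT-qPCR, had 742, 698 and 719 CPM in LFD, 642, 619 and 619 in HFD and 599, 595 and 582 in HFD + EC359. It was lower with HFD by a log2 fold change of -0.20 (SE 0.033, adjusted p = 7.95e-06), with no overlap between LFD and HFD. Rps6, the small subunit protein that S6 kinases phosphorylate, had 766, 687 and 693 CPM in LFD, 572, 561 and 545 in HFD and 522, 519 and 497 in HFD + EC359, and was also lower with HFD (-0.35, SE 0.038, adjusted p = 2.08e-09). Rpsa, a small subunit protein that is also known as a laminin receptor precursor, had 1729.7, 1697 and 1725 CPM in LFD, 1442, 1477 and 1464 in HFD and 1328, 1332 and 1323 in HFD + EC359. Its log2 fold change with HFD was -0.23 (SE 0.028, adjusted p = 2.03e-08).

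Changes with HFD were set against levels in the HFD + EC359 group, whose libraries were not part of the comparison. Across the 77 subunit genes Spearman's rho between the log2 fold change with HFD and the level per kb in HFD + EC359 was -0.34, with GC content -0.19, with length -0.15 and with the number of near-identical copies 0.11. These are descriptions across genes that share the same libraries. Rpl21, the lowest in level, had a log2 fold change of -0.11 (adjusted p = 0.624) and Rpl29 and Rpl26, the next in level, 0.63 and 0.65, while Rplp1 and Rpl41, the highest, had 0.06 and -0.23. The low genes rest on few counts, with 30 to 50 for Rpl26 in the LFD libraries.

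**Figure D4:**
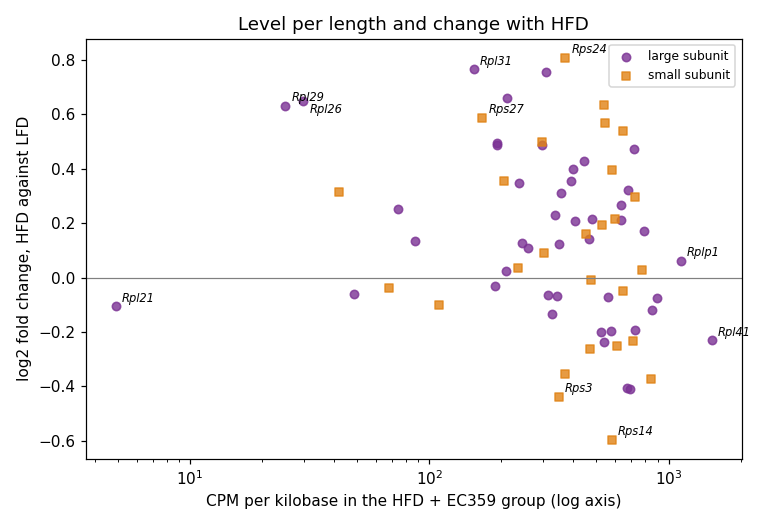
log2 fold change of HFD against LFD (vertical axis) against the level in the HFD + EC359 group in CPM per kilobase (horizontal log axis) for 45 large subunit genes (purple circles) and 27 small subunit genes (orange squares). Rps24 has a large rise at a middle level, and the highest genes, Rpl41 and Rplp1, lie near or below 0.

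The second comparison, HFD + EC359 against HFD, asks what the LIFR inhibitor changed under the high-fat diet. Log2 fold changes of the tested ribosomal protein genes ran from -0.26 to 0.73, where the upper end is Rps19-ps3, which had 7 to 30 counts per library and did not pass. Of 84 genes 17 were higher, 13 were lower and 54 did not pass, against 12.7% higher and 13.9% lower among all tested genes. The 17 and 13 are 20.2% and 15.5% of the members tested. The median log2 fold change was 0.02, beside 0.01 over all tested genes. With the trend of GC content and length removed the split turned to 5 higher and 34 lower, where 10.4% and 16.0% of all tested genes were called, and the median became -0.07. All 13 lower genes were lower in both fits, while 5 of the 17 higher genes were higher in both. The direction of the family as a whole with EC359 therefore depended on this choice. With the largest called change at 0.48 on the log2 scale, that of Rps27l, the fold limit of 2 was not reached, while both limits of the methods were passed by 3.43% of all tested genes. In the large subunit 7 genes were higher and 6 lower, and in the small subunit 9 were higher and 7 lower. Of the 17 higher genes 11, and of the 13 lower genes 7, kept their call in all 9 fits that left out 1 library each, and 4 and 6 kept it in every alternative fit. The count of lower genes was 8 without HFD + EC359 replicate 3, to 7 without HFD replicate 1 and to 8 with library totals in place of TMM factors.

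**Figure D5:**
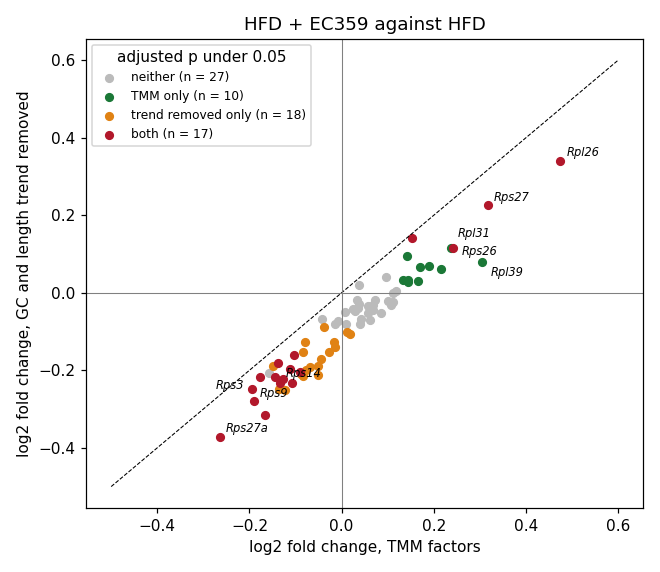
log2 fold change of HFD + EC359 against HFD for 72 subunit genes with TMM factors (horizontal axis) and with the trend of GC content and length removed (vertical axis), with the dashed line marking equal values and colors marking an adjusted p under 0.05 in neither fit (27 genes), with TMM factors only (10), with the trend removed only (18) or in both (17). All 72 points lie below the line, and Rpl26 and Rps27 stay highest in both.

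Rpl26, a protein beside the exit tunnel that also binds Trp53 mRNA, rose most among the subunit genes. It had 10.3, 12.3 and 12.4 CPM in HFD and 16.1, 14.7 and 17.7 in HFD + EC359, with 6.13, 7.84 and 8.10 in LFD. The log2 fold change with EC359 was 0.47 (SE 0.12, adjusted p = 0.00414), and 0.34 (adjusted p = 0.036) with the trend removed. These values rest on 82 to 94 counts per HFD library.

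Rps27, a zinc-finger protein of the small subunit, had 76.2, 75.6 and 78.7 CPM in HFD and 95.8, 93.1 and 98.1 in HFD + EC359 (0.32, SE 0.056, adjusted p = 5.36e-05). It stayed called with the trend removed at 0.23 (adjusted p = 0.00133). Rps26, which touches the mRNA at the exit side, had 200.3, 202 and 207 CPM in HFD and 239, 261 and 221 in HFD + EC359 (0.24, SE 0.050, adjusted p = 0.000425), and 0.12 (adjusted p = 0.0479) with the trend removed. For these genes every EC359 library was above every HFD library.

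Rpl39, a short protein that lines the exit tunnel, had 109, 110.3 and 101 CPM in HFD and 125, 136 and 134 in HFD + EC359 (0.30, SE 0.061, adjusted p = 0.000245). With the trend removed its log2 fold change was 0.079 (adjusted p = 0.243), so the call ended. Rpl31 likewise went from 0.24 (SE 0.053, adjusted p = 0.000794) to 0.12 (adjusted p = 0.0611).

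Rps27a, which encodes ubiquitin fused to a small subunit protein, fell most with EC359. It had 217, 238 and 241 CPM in HFD and 198, 216 and 167 in HFD + EC359, where replicate 3 was lowest and the groups did not overlap, and 235, 239 and 204 in LFD. The log2 fold change with EC359 was -0.26 (SE 0.062, adjusted p = 0.0014), and it was not called by DESeq2. Rps3 fell to 679.8, 659.7 and 623 CPM (-0.19, SE 0.036, adjusted p = 8.23e-05), Rps9 to 589.5, 609 and 590.1 (-0.19, SE 0.033, adjusted p = 3.75e-05) and Rpl18 to 462, 469 and 470.1 (-0.18, SE 0.034, adjusted p = 0.000136). Rpl37a had 381, 413 and 389.8 CPM with EC359 (-0.17, SE 0.036, adjusted p = 0.000622). These falls with EC359 were called in all 9 fits that each left out 1 library.

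The third comparison, HFD + EC359 against LFD, sets the treated tumors beside those of the lean diet and shares its samples with the other comparisons. Of 84 genes 45 were higher and 24 lower, against 29.2% and 29.1% of all tested genes, and 15 did not pass. The median log2 fold change was 0.21, beside 0.01 over all tested genes. With the trend removed 38 were higher and 32 lower, against 21.5% and 28.0% of all tested genes, and the median was 0.11. In every alternative fit 34 of the 45 and 17 of the 24 kept their call. Rpl26 and Rpl31 were among 3 genes that passed the fold change over 2 and adjusted p under 0.01, as 5.09% of all tested genes did, with a log2 fold change of 1.12 for Rpl26, while Rpl31 lay just past the fold limit. For Rps24 the values were 0.81 for HFD against LFD, 0.17 for HFD + EC359 against HFD and 0.97 for HFD + EC359 against LFD. For Rps14 they were -0.60, -0.13 and -0.73, and for Rps3 -0.44, -0.19 and -0.63, in the same order. The call of Rps14 for HFD + EC359 against HFD was lost without HFD replicate 1 or 2 and without HFD + EC359 replicate 2 or 3. It was also lost with library totals in place of TMM factors. With the trend removed the value of Rps24 for HFD + EC359 against HFD was 0.029 (adjusted p = 0.61), so that call ended.

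The genes were then described by their place in the ribosome. The genes of the 9 proteins at the peptide exit tunnel were all higher with HFD and none lower. Their median log2 fold change was 0.35 and the range 0.13 to 0.77. Among all tested genes 26.0% were higher and 25.8% lower, and among the 46 large subunit genes, which include these 9, 58.7% and 21.7%. The list was chosen with earlier results of these data known, so its counts are a description and no test of place in the ribosome. In addition to Rpl31, Rpl23a and Rpl26, this group holds Rpl4, which reaches into the tunnel and had 698, 786 and 772 CPM in LFD and 881, 903 and 929.9 in HFD (0.27, SE 0.036, adjusted p = 2.2e-07). It also holds Rpl35, at the tunnel rim, with 291, 312 and 303 CPM in LFD and 342, 341 and 338 in HFD (0.17, SE 0.038, adjusted p = 0.000281). With the trend removed 8 of the 9 were higher and none was lower, where 20.2% and 22.7% of all tested genes were called. Rpl39, the exception, also lost its call without LFD replicate 1. The call of Rpl22 ended without HFD replicate 2. With EC359 3 of the 9 were higher against HFD and none lower, beside 12.7% and 13.9% of all tested genes. With the trend removed 1 was higher and 1 lower, beside 10.4% and 16.0%, the lower gene being Rpl22 at -0.13 (adjusted p = 0.0153). Against LFD 8 were higher and none lower, beside 29.2% and 29.1% of all tested genes.

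The genes of the 10 proteins of the mRNA channel of the small subunit moved both ways. With HFD 4 were higher and 4 lower, that is 40% each beside 26.0% and 25.8% of all tested genes. Among the 31 small subunit genes 51.6% were higher and 22.6% lower. With EC359 against HFD 1 was higher and 4 lower (10% and 40%, beside 12.7% and 13.9%), and 1 and 7 with the trend removed (where 10.4% and 16.0% of all tested genes were called). Rps26 was the highest of them in fold change with HFD at 0.63 and Rps14 the lowest at -0.60. The most abundant, Rpsa and Rps3, were both lower with HFD and lower again with EC359. Against LFD, 4 of the 10 were higher and 5 lower in the treated tumors, beside 29.2% and 29.1% of all tested genes.

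The stalk of the large subunit, made of Rplp0, Rplp1, Rplp2 and Rpl12, recruits the elongation factors. Rplp0 had 349, 449 and 417 CPM in LFD, 518, 515 and 526 in HFD and 531, 534 and 529.5 in HFD + EC359, and was higher with HFD (0.35, SE 0.049, adjusted p = 3.39e-07). Rplp1 had 483, 505 and 493 CPM in LFD, 504, 517 and 526 in HFD and 532, 528 and 518 in HFD + EC359, with overlap between LFD and HFD (0.06, SE 0.034, adjusted p = 0.13), but was called higher with the trend removed (0.23, adjusted p = 3.07e-07). Rplp2, the partner of Rplp1, had 245, 259 and 258 CPM in LFD, 255, 230.4 and 241 in HFD and 266, 249 and 225 in HFD + EC359 (-0.07, SE 0.050, adjusted p = 0.225). Rpl12, at the base of the stalk, had 551, 592 and 581 CPM in LFD, 525, 526 and 539 in HFD and 555, 543 and 539.8 in HFD + EC359 and was lower with HFD (-0.12, SE 0.034, adjusted p = 0.00484), a call that ended with the trend removed. With EC359 against HFD the 4 had log2 fold changes of 0.02 to 0.04 and did not pass.

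Rpl5 and Rpl11 form a particle with 5S ribosomal RNA that also binds Mdm2. Rpl11 had 425, 405 and 389 CPM in LFD, 352, 341 and 339 in HFD and 326, 312 and 319 in HFD + EC359, in 3 ranges that did not overlap. It was lower with HFD (-0.24, SE 0.038, adjusted p = 4.01e-06) and lower with EC359 against HFD (-0.11, SE 0.038, adjusted p = 0.0309), the latter lost without HFD replicate 1 or 2 and without HFD + EC359 replicate 2 or 3. Rpl5 had 431, 493 and 508 CPM in LFD, 500.3, 521 and 527 in HFD and 517, 517 and 527 in HFD + EC359, with overlap between LFD and HFD. Its log2 fold change with HFD was 0.11 (SE 0.042, adjusted p = 0.0285), but -0.15 (adjusted p = 0.000304) with the trend of GC content and length removed, and its call also ended without LFD replicate 1 and without HFD replicate 2 or 3. No direction can therefore be given for Rpl5.

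The 20 ribosomal protein genes known to be mutated in Diamond-Blackfan anemia overlap with the groups above. With HFD 15 were higher and 3 lower, with a median log2 fold change of 0.34, and with EC359 against HFD 10 were higher and 2 lower, with a median of 0.11. These are 75% and 15% of the list with HFD, beside 26.0% and 25.8% of all tested genes, and 50% and 10% with EC359, beside 12.7% and 13.9%. Of the 84 tested ribosomal protein genes, which include this list, 53.6% and 20.2% were called with HFD and 20.2% and 15.5% with EC359. The list was chosen with earlier results of these data known. With the trend removed 13 of the list were higher and 5 lower with HFD, beside 20.2% and 22.7% of all tested genes. With EC359 3 were then higher and 6 lower, beside 10.4% and 16.0%. Against LFD 15 (75%) were higher and 4 (20%) lower in the treated tumors, beside 29.2% and 29.1% of all tested genes and 53.6% and 28.6% of the 84. The most abundant of the list, Rpl18 and Rpl5, are described above and were not among those that led the rise.

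Of the 8 paralogs, copies of ribosomal protein genes that are often tissue-restricted, 5 had enough counts to be tested. Rps27l, a copy of Rps27 that Trp53 is known to induce, was higher in the same comparisons as its parent. It had 9.60, 15.4 and 16.2 CPM in LFD, 19.02, 18.7 and 20.7 in HFD and 28.7, 26.4 and 26.4 in HFD + EC359, in 3 ranges that did not overlap. Its log2 fold change was 0.48 with HFD (SE 0.13, adjusted p = 0.00306) and 0.48 with EC359 against HFD (SE 0.11, adjusted p = 0.000925), beside 0.59 and 0.32 for Rps27. With the trend removed the first was 0.20 (adjusted p = 0.2) and the second 0.28 (adjusted p = 0.0355), and the first also lost its call without LFD replicate 1.

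Rpl22l1, the copy of Rpl22, had 21.0, 25.1 and 26.9 CPM in LFD, 24.9, 22.8 and 24.6 in HFD and 33.6, 27.4 and 25.8 in HFD + EC359, and did not pass in any comparison, with log2 fold changes of -0.02, 0.25 and 0.23. At 38.6% GC it is AT-rich, and with the trend removed its values against LFD became -0.48 for HFD and -0.49 for HFD + EC359 (adjusted p = 0.000566 and 0.000169). Rpl22 had 164 to 179 CPM in LFD, 183 to 192 in HFD and 175 to 180.1 in HFD + EC359, and was higher with HFD (0.13, adjusted p = 0.013). Rpl36al had 50.9 to 59.1, 57.9 to 66.1 and 65.6 to 72.9 CPM in the same groups beside 101 to 108, 101 to 111 and 94.2 to 108 for its relative Rpl36a, and neither passed with HFD against LFD. Rpl7l1 had 66.2 to 78.7, 78.0 to 80.99 and 80.8 to 83.8 CPM (0.17 with HFD, adjusted p = 0.0229), beside 483 to 572, 624 to 628 and 584 to 598 for Rpl7 (0.21, adjusted p = 6.64e-05). The call of Rpl7l1 with HFD ended without LFD replicate 1 or 2 and without HFD replicate 1 or 2.

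The remaining paralogs were near or at the limit of detection. Rps4y2, listed beside its parent Rps4x at 479 to 554 CPM in LFD, had 3 to 8 counts per library in LFD, 11 to 15 in HFD and 12 to 16 in HFD + EC359, and did not pass. Rps4x was at 644 to 656 CPM in HFD and was higher there (0.30, adjusted p = 1.67e-07). The muscle form Rpl3l had 0 to 1, 1 to 5 and 2 to 4 counts per library in the same groups, while its parent Rpl3 had 497 to 554, 465 to 491 and 434 to 455 CPM. Rpl39l had 0 counts in each LFD library, 1 to 2 in HFD and 1 to 7 in HFD + EC359. Rpl10l, a copy of Rpl10 known from the testis, had 0 counts in all 9 libraries, which allows up to 0.300 to 0.613 CPM depending on the library, while Rpl10 had 199 to 247 CPM in LFD and 291 to 299 in HFD and was higher with HFD (0.40, adjusted p = 3.46e-08). Of the pseudogenes, Rpl34-ps1 is annotated at nearly the same place as Rpl34 (chr3:130429755-130433247 and chr3:130429749-130433226 in mm9, minus strand), with values of 177 to 193 and 181 to 198 CPM in HFD, and pairs on shared exons were split between both symbols, so these are not separate measurements. Rps19-ps3 had 7 to 30 counts per library and did not pass in any comparison.

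Fau and Gnb2l1 are among the ribosomal proteins that carry other names. Fau, a ubiquitin-like protein fused to a small subunit protein, had 573, 556 and 552 CPM in LFD, 397, 402 and 393 in HFD and 347, 355 and 343 in HFD + EC359 and was lower with HFD and lower again with EC359 (-0.50 and -0.19, adjusted p = 1.34e-13 and 7.37e-05). The 3 groups did not overlap. Gnb2l1, the scaffold RACK1 on the small subunit, had 797, 865 and 852 CPM in LFD, 791, 824 and 812 in HFD and 768, 768 and 768 in HFD + EC359. It did not pass with HFD against LFD or with EC359 against HFD (-0.05 and -0.07), but was lower with EC359 against LFD (-0.13). With the trend removed Gnb2l1 was lower with EC359 against HFD too.

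Among the 8 elongation factor genes 1 was higher and 4 lower with HFD, and 1 was higher and 2 lower with EC359 against HFD. The shares are 12.5% and 50% with HFD, beside 26.0% and 25.8% of all tested genes, and 12.5% and 25% with EC359, beside 12.7% and 13.9%. Eef1a1, which brings tRNAs to the ribosome and was the most abundant of them, had 3807, 4256 and 4176 CPM in LFD and 4425, 4512 and 4599 in HFD (0.15, SE 0.030, adjusted p = 0.000169). This call of Eef1a1 ended with the trend of GC content and length removed. Eef1g, a subunit of its exchange factor, had 773, 745 and 758 CPM in LFD, 582, 609.7 and 581 in HFD and 481, 473 and 478 in HFD + EC359, with log2 fold changes of -0.36 and -0.31 (adjusted p = 7.51e-11 and 5.76e-09). The exchange factor subunits Eef1b2 (-0.12) and Eef1d (-0.38) and the factor Eif5a (-0.28) were lower with HFD too, the last only without the trend removed. Eef2, which moves the ribosome along the mRNA, had 2736 to 2852 CPM in LFD and 2700.1 to 2759.7 in HFD and did not pass (-0.04), but was higher with the trend removed (0.16, adjusted p = 1.59e-05). Eef1a2, at 1.63 to 3.29 CPM in LFD, was the gene higher with EC359 (0.92, adjusted p = 0.0261), on 9 to 15 counts per HFD library, and Eif5a2, at 3.07 to 4.40 CPM in LFD, did not pass in any comparison.

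Other parts of the translation machinery were counted in the same way, beside 26.0% higher and 25.8% lower with HFD and 12.7% and 13.9% with EC359 among all tested genes. Of 34 initiation factor genes 16 (47.1%) were higher and 12 (35.3%) lower with HFD, with Eif4g2 at 0.39 and Eif4g1 at -0.19 as the most abundant, and 1 (2.94%) was higher and 4 (11.8%) lower with EC359 against HFD. With the trend removed 7 were higher and 10 lower with HFD and 9 were lower with EC359, so the list had no fixed direction. Of 19 other genes whose mRNAs begin with a pyrimidine run 9 (47.4%) were higher and 5 (26.3%) lower with HFD, and 4 (21.1%) were higher and 6 (31.6%) lower with EC359, which became 7 and 7, and 2 and 10, with the trend removed. This list shares Eef1a1, Eef1b2, Eef1d, Eef1g, Eef2, Fau and Gnb2l1 with the groups above. Of 17 regulators of ribosomal protein mRNA translation 4 (23.5%) were higher and 6 (35.3%) lower with HFD, and 4 and 4 with the trend removed. With EC359 against HFD 2 (11.8%) of them were higher and 2 (11.8%) lower, and 1 and 3 with the trend removed. Larp1, which binds the pyrimidine start, was lower with HFD (-0.19, SE 0.038, adjusted p = 8.44e-05) and with EC359 against HFD (-0.15, SE 0.037, adjusted p = 0.00195), and Rptor, a subunit of the mTOR complex that acts on Larp1, was lower with HFD (-0.30, SE 0.043, adjusted p = 5.29e-07). Of 16 usual RT-qPCR reference genes, which include Rplp0 and Rpl13a, 6 (37.5%) were higher and 3 (18.8%) lower with HFD, and 5 and 5 with the trend removed. The most abundant, Actb and Ywhaz, had log2 fold changes of 0.13 and 0.02.

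The 76 mitochondrial ribosomal protein genes, which serve a separate ribosome, were counted too. With HFD 10 (13.2%) were higher and 18 (23.7%) lower, beside 26.0% and 25.8% of all tested genes, and with EC359 against HFD 4 (5.26%) were lower, beside 13.9%, and 72 did not pass, with medians of -0.01 and 0.00. The most abundant, Mrpl12 and Mrpl13, had log2 fold changes with HFD of -0.41 (adjusted p = 3.05e-06) and -0.15 (adjusted p = 0.0768). The difference between both families was not tested.

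The spread between replicates was small in the ribosomal protein genes. The median SD of log2 CPM over 3 libraries was 0.033 in HFD and 0.036 in HFD + EC359, beside 0.087 and 0.079 over all tested genes, and 0.099 in LFD beside 0.118. The genes compared were not matched for level, and counting error on the log2 scale is smaller for abundant genes, as most members are. A trait of the family can therefore not be read from these values. The wider LFD value goes with LFD replicate 1, in which the median log2 CPM of the 84 genes was 7.71, against 7.94 and 7.89 in the other LFD libraries and 7.99 to 8.05 in the HFD and HFD + EC359 libraries.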

How the data were processed

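RNA was extracted with an RNeasy kit, and stranded mRNA libraries were sequenced in 150 bp paired ends. Per the file headers, the authors made the expected counts with featureCounts v1.5.0-p1 on the mm9 gene annotation, reverse-stranded, dropping pairs with mapping quality under 2 and splitting pairs that matched several features into fractions. The submitters' processing notes name HISAT2 2.1.0 for alignment, while the study's methods name other tools. These deposited counts were rounded to whole numbers. Genes were filtered with filterByExpr, which kept 13366 of 22609 genes, scaled by TMM and fitted in 1 model of the 3 groups with edgeR's quasi-likelihood test (edgeR 4.0.16, R 4.3.3), and p-values were adjusted by Benjamini-Hochberg over all tested genes, with a call at adjusted p under 0.05. Totals of 5085357 to 9751201 counts set the counting precision of each library. CPM and log2 fold changes were computed here. Sequences came from the NCBIM37 (mm9) genome, and copies were sought with BLAST+ 2.17.0. Alternatives were DESeq2 1.42.0, RLE size factors, library totals, TMM factors from other genes, other filters, the 6 libraries of a comparison, a replicate block, removal of the GC content and length trend with mgcv 1.9.3, thinned counts, 9 fits without 1 library each and the methods' threshold. The members and lists were chosen with earlier results of these data known. Named genes were the 5 called subunit genes with the largest rise and fall with HFD and with EC359, the 5 highest and 3 lowest per length, the stalk, the 5S particle, Rps6, Rpsa, Rpl13a, paralogs with their parents, pseudogenes with at least 10 counts, ribosomal proteins with other names, elongation factors, and the 2 most abundant genes of the other lists. Certain genes were left unreported, in the plots of single genes too. The fits were tested on simulated data.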

Additional observations from a re-analysis of the deposited data

How the results depend on the processing

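Counts of ribosomal protein genes past the test with HFD against LFD were 37 to 48 higher and 16 to 19 lower over the alternatives at the same threshold, and 37 to 49 higher and 19 to 32 lower with HFD + EC359 against LFD. With the fold change over 2 and adjusted p under 0.01, the counts were 1 higher and 0 lower with HFD, 0 and 0 with EC359 against HFD, and 3 and 0 with EC359 against LFD. The EC359 against HFD result moved most. Its 17 higher and 13 lower genes became 5 and 34 with the GC content and length trend removed, also together with the replicate block, and 8 lower with library totals. Without 1 library each, the lower count ran from 7 to 18, with 7 without HFD replicate 1, 8 without HFD + EC359 replicate 3 and 18 without LFD replicate 1. The median of 0.02 became -0.068 with the trend removed, with and without the block, and 0.053 with library totals. The cause was not tested. The share of counts was 2.65% in HFD and 2.67% in HFD + EC359 when the paralogs and pseudogenes were left out.

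Among values of named genes called in at least 1 of the fits compared, signs reversed with the trend removed and under no other alternative, without and with the block, in that order. Against LFD with HFD, Rpl5 went to -0.15 and -0.15, Rpl39 to -0.11 and -0.11, Rpl36a to -0.14 and -0.14, Rpl13 to 0.12 and 0.12, and Eef2 to 0.16 and 0.16. With EC359 against LFD, Rpl5 went to -0.26 and -0.25, Rpl7 to -0.11 and -0.11, Rpl39 to -0.036 and -0.032, Rpl22l1 to -0.49 and -0.51, Rpl13 to 0.032 and 0.032, and Eef2 to 0.13 and 0.13. With EC359 against HFD, Rpl5 went to -0.10 and -0.10.

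Over the named genes and alternatives, 3134 values kept their side of the threshold, 95 became significant, 93 lost significance and 24 reversed. The 3134 include 76 values that were not called in either fit and differed in sign, 15 of them with the trend removed, such as Rplp2 with HFD and Rpl12 with EC359 against HFD. No pairing by replicate number was seen, with correlations of deviations from -0.030 to 0.017 between same-numbered libraries. These values cannot exclude a weak pairing. With the replicate number as a block the counts were 45 higher and 17 lower with HFD, 19 and 13 with EC359 against HFD, and 45 and 24 with EC359 against LFD. Depth limits Rps4y2, Rps19-ps3, Rpl3l, Rpl39l, Rpl10l, Rpl21 and Rpl26, which had the fewest counts.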
